A study of Mus musculus with 48 samples.

Results

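Nodal signalling and the primitive streak programme were followed through 10 genes in mouse embryonic stem cells and cells differentiating from them. The genes are the ligands Nodal and Inhbb, the co-receptor gene Tdgf1, the inhibitors Lefty1, Lefty2 and Fst, and the transcription factors T, Mixl1, Gsc and Evx1. They were picked by name from a table of 36935 genes, and all 10 were found in it. RNA of 4 lines was sequenced: a KAT6A knockout, a KAT6B knockout, a double knockout (KAT6A-/-; KAT6B-/-) and the control line, called E14 after the mouse stem cell line from which all 4 derive. KAT6A and KAT6B are lysine acetyltransferases that act on histone H3. Each line was sampled as stem cells kept in LIF (day 0) and on days 2, 6 and 15 of differentiation to neurons. The 16 groups hold 3 libraries each, 48 in all, from 3 independent differentiation experiments. Cells of every line formed embryoid bodies after LIF was withdrawn, received 10 µM all-trans retinoic acid at days 4 and 6, and from day 8 were grown attached to poly-D-lysine and laminin in N2 and then B27 medium. The labels do not say how the knockout lines were made or whether each is 1 clone.

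Nodal is a secreted ligand of the TGF-beta family that acts through activin receptors together with the co-receptor encoded by Tdgf1 (Cripto), and its signal passes through SMAD2, SMAD3 and the nuclear partner FOXH1. Lefty1 and Lefty2 encode feedback inhibitors that Nodal signalling switches on, and Fst encodes follistatin, which binds and blocks activins. In the mouse embryo the pathway sets up the primitive streak, where T (Brachyury), Mixl1, Gsc (goosecoid) and Evx1 are expressed in forming mesoderm and endoderm, and its activity is low while neural tissue forms.

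The libraries held 22.5 to 72.23 M counts over all genes, and levels are given as CPM, counts per M counts scaled by TMM over all 48 libraries. The target genes kept transcripts. Kat6a stood at 50.2% to 66.9% of the E14 mean in the KAT6A knockout and at 59.8% to 75.2% in the double knockout, and all 12 libraries of each line lay below every E14 library of their day. Kat6b stood at 59.8% to 96.3% of E14 in the KAT6B knockout and at 65.4% to 94.6% in the double knockout, with 11 of 12 and 7 of 12 libraries below every E14 library. Counts summed over all exons do not tell whether an exon was edited or the protein lost. In E14 the summed level of 7 naive stem cell genes was 1650 to 1798 CPM at day 0. That of 5 neuronal genes was 126 to 165 CPM at day 0, 67.1 to 74.6 CPM at day 2, 25.1 to 36.4 CPM at day 6 and 871 to 1546 CPM at day 15.

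In the deposited annotation (GRCm39), Lefty2 (ENSMUSG00000066652) at chr1:180720673-180726668, Lefty1 (ENSMUSG00000038793) at chr1:180762587-180765965, Mixl1 (ENSMUSG00000026497) at chr1:180520608-180524599 and Inhbb (ENSMUSG00000037035) at chr1:119343195-119349978 lie on chromosome 1. The other genes are spread over the genome, with Nodal (ENSMUSG00000037171) at chr10:61253751-61261117, Tdgf1 (ENSMUSG00000032494) at chr9:110768671-110775226, Fst (ENSMUSG00000021765) at chr13:114588826-114595487. Of the remaining streak factors, T (ENSMUSG00000062327) at chr17:8653255-8661328, Gsc (ENSMUSG00000021095) at chr12:104437468-104439589 and Evx1 (ENSMUSG00000005503) at chr6:52290483-52295363 each lie on a chromosome of their own.

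The promoters of genes that moved together are shown first, as 300 bases from 250 before to 50 after the start of the gene. RefSeq's promoter table (GRCm38.p6) held 6 of the 10 genes: Nodal, Inhbb, Tdgf1, T, Gsc and Evx1. The first 3 below belong to genes that fell together between days 2 and 6 in E14, and the fourth, Evx1, to a gene that was higher again at day 15. Nodal lies at chr10:61417722-61418021 on the plus strand, Tdgf1 at chr9:110946109-110946408 on the minus strand, T at chr17:8434173-8434472 on the plus strand and Evx1 at chr6:52313248-52313547 on the plus strand. Capitals mark CAGAC, a SMAD binding motif, or its reverse complement.
Nodal: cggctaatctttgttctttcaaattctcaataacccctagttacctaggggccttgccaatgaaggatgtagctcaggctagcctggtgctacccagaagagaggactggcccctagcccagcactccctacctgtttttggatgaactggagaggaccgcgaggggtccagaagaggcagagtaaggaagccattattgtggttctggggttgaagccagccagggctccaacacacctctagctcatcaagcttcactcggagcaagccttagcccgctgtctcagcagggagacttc
Tdgf1: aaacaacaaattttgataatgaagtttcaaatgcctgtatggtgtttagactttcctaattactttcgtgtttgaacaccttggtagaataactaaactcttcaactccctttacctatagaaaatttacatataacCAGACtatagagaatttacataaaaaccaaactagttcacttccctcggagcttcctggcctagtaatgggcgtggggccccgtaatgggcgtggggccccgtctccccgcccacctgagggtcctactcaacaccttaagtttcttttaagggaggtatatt
T: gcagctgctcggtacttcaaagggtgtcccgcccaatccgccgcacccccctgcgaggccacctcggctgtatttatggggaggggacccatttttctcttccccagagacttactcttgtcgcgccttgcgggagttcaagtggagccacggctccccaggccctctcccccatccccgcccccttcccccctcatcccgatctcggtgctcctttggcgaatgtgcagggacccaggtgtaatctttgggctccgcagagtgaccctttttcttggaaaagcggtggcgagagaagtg
Evx1: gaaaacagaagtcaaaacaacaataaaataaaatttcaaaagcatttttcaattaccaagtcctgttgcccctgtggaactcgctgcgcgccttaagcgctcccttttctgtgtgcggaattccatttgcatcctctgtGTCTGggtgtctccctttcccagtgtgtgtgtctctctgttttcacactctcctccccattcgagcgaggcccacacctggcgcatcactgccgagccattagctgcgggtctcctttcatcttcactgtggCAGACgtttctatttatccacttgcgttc
CAGAC was present once in the Tdgf1 promoter, at position -113 from the start, and at positions -111 (reverse complement) and 22 in the Evx1 promoter. It was in none of the other 4, and 49.6% of all 32851 promoters held it on either strand. The FOXH1 motifs (TGTGGATT, TGTGTATT, TGTTTATT and TGTTGATT), the T-box motif (GGTGTGA) and the TCF/LEF motif (ATCAAAG) were in none of the 6, with shares of 4.4%, 3.98% and 3.73% over all promoters.

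Per length of transcript, Tdgf1 was the most abundant of the 10 genes in E14 stem cells. Its level was 250, 181 and 169 CPM per kilobase of exon in the 3 libraries (exon lengths from GENCODE vM21). Lefty1 (101 to 177 CPM per kilobase), Lefty2 (51.5 to 77.8) and Nodal (24.5 to 37.3) followed, then T (9.41 to 31.1), Inhbb (5.96 to 16.1), Fst (3.18 to 6.54), Mixl1 (1.53 to 4.31), Evx1 (0.364 to 2.04) and Gsc (0.533 to 0.758). In this order the libraries of Tdgf1 and Lefty1 overlapped, as did those of every later pair of neighbours except Lefty1 and Lefty2 and Lefty2 and Nodal. By day 15 the order per kilobase in E14 had Fst first, at 28.9 to 53.9, and T (0.0106 to 0.116) and Mixl1 (0.00755 to 0.0808) last.

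**Figure D1:**
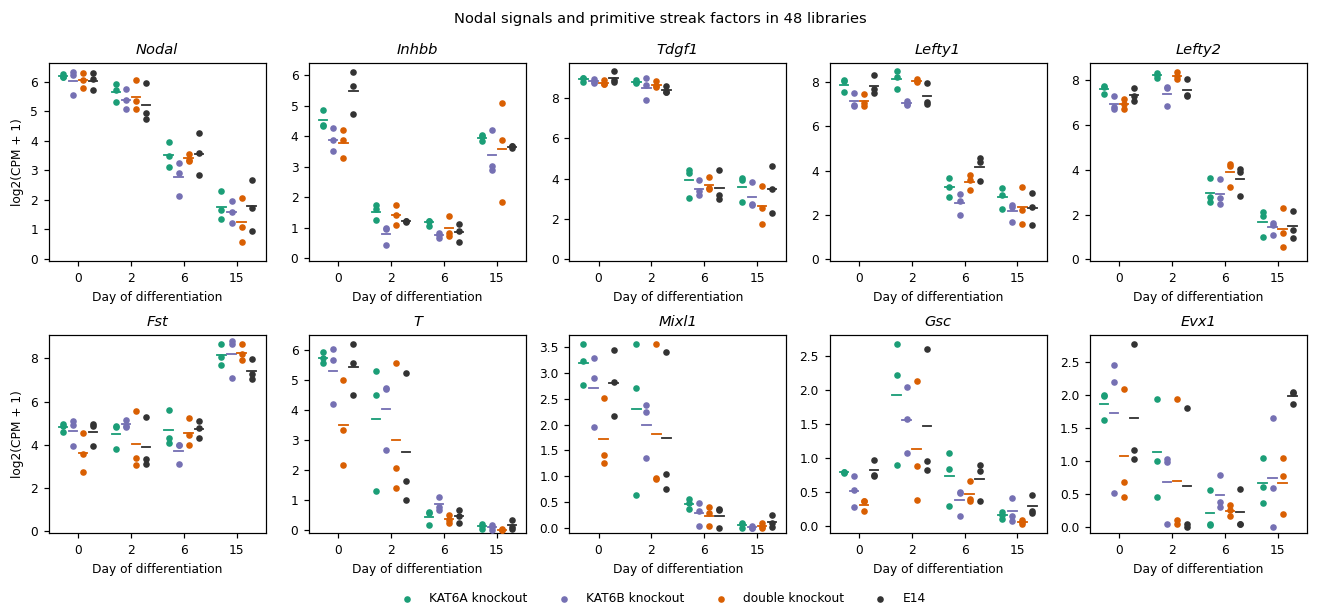
Level of each of the 10 genes as log2(CPM + 1) on the vertical axis against the day of differentiation, with 1 point per library, 3 per group, and a bar at the mean. Inhbb stood at 1.27 to 1.36 CPM in E14 at day 2, against 25.3 to 68.3 CPM at day 0, and Fst reached 133 to 443 CPM at day 15.

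Of the ligands, Nodal fell in both steps after day 2 in E14. Its levels were 67.2, 51.3 and 78.2 CPM at day 0, 30, 25.6 and 61.2 CPM at day 2, 6.2, 18 and 10.9 CPM at day 6 and 0.905, 5.41 and 2.32 CPM at day 15. Days 0 and 2 overlapped in replicate 3 of day 2, while day 6 lay below day 2 and day 15 below day 6 in every library. Day 2 against day 0 gave a log2 change of -0.75 ± 0.50 (adjusted p = 0.300), day 6 against day 2 gave -1.69 ± 0.51 (adjusted p = 0.0173) and day 15 against day 6 gave -1.99 ± 0.53 (adjusted p = 0.00623). Changes are edgeR log2 values ± SE, with p-values adjusted over all genes tested and calls at adjusted p under 0.05. The Nodal call at day 6 was lost when E14 day 2 replicate 3, day 6 replicate 1 or day 6 replicate 3 was dropped (adjusted p = 0.0905, 0.0715 and 0.0584).

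Inhbb, which encodes the beta-B subunit of activins, had the largest change of the 10 genes between days 0 and 2. It was at 68.3, 25.3 and 49.1 CPM in E14 stem cells, 1.27, 1.36 and 1.36 CPM at day 2, 0.461, 1.21 and 0.874 CPM at day 6 and 11.8, 11.4 and 12 CPM at day 15. The day 0 libraries thus stood far above those of days 2 and 6, and at day 15 the 3 libraries lay close together between the 2 ranges. Day 2 against day 0 gave -5.16 ± 0.38 (adjusted p = 1.31e-05) and day 15 against day 6 gave 3.76 ± 0.36 (adjusted p = 1.54e-06). Inhbb was the only member of the 10 called between days 0 and 2 in E14, where 21.6% of 20503 genes were called. In bulk RNA, fewer cells that express a gene and less RNA per cell cannot be told apart.

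Tdgf1 was high at days 0 and 2 and low afterwards. It was at 656, 474 and 444 CPM at day 0, 320, 321 and 382 CPM at day 2, 6.95, 20.4 and 8.12 CPM at day 6 and 3.91, 23.6 and 10.4 CPM at day 15. All day 2 libraries lay below those of day 0, without a call (-0.63 ± 0.48, adjusted p = 0.375), and those of day 6 lay far below day 2. The change at day 6 against day 2 was -4.81 ± 0.57 (adjusted p = 2.61e-05), and day 15 against day 6 gave 0.11 ± 0.50.

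The Lefty genes stayed high through day 2 and then fell in both later steps. Lefty1 was at 312, 203 and 178 CPM at day 0, 134, 128 and 246 CPM at day 2, 10.5, 23 and 19.7 CPM at day 6 and 1.93, 6.86 and 4.11 CPM at day 15. Lefty2 was at 203, 157 and 134 CPM, 156, 159 and 263 CPM, 6.1, 15.2 and 14.1 CPM and 0.905, 3.45 and 1.49 CPM at the same days. For both genes days 0 and 2 overlapped, and no library overlapped between days 2 and 6 or between days 6 and 15. Lefty1 changed by -3.21 ± 0.43 and Lefty2 by -3.98 ± 0.43 at day 6 against day 2 (adjusted p = 6.78e-05 and 1.36e-05). At day 15 against day 6 Lefty1 changed by -2.02 ± 0.42 and Lefty2 by -2.56 ± 0.44 (adjusted p = 0.00116 and 0.000237). The 2 genes are paralogs whose loci on chromosome 1 are 35918 bases apart, so reads of shared sequence may have been assigned to either, and an antisense entry overlaps Lefty2 by 1336 bases at a mean of 1.26 CPM.

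Fst took the opposite course. It was at 14.6, 28.3 and 30 CPM at day 0, 9.15, 7.59 and 38.3 CPM at day 2, 33.8, 26 and 19 CPM at day 6 and 133, 247 and 154 CPM at day 15. The first 3 days overlapped, and every day 15 library lay above them. Fst rose by 2.77 ± 0.53 at day 15 against day 6 (adjusted p = 0.000566).

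Among the streak transcription factors, T and Mixl1 had their highest E14 means in stem cells and were all but gone by day 6. T was at 21.8, 45.8 and 72.1 CPM at day 0, 1.01, 2.08 and 36.2 CPM at day 2, 0.396, 0.193 and 0.583 CPM at day 6 and 0.0244, 0.269 and 0.0866 CPM at day 15. Mixl1, a homeobox factor of mesendoderm, was at 3.51, 6.09 and 9.89 CPM at day 0, 1.07, 0.695 and 9.53 CPM at day 2, 0, 0.289 and 0.273 CPM at day 6 and 0.0733, 0.185 and 0.0173 CPM at day 15. At day 2 replicate 3 alone held both genes near their day 0 levels, and the other 2 libraries were low. At day 6 against day 2, T changed by -4.99 ± 1.17 (adjusted p = 0.00399) and Mixl1 by -4.17 ± 1.03 (adjusted p = 0.00561), and Mixl1 was not called without day 2 replicate 3 (-2.07, adjusted p = 0.0579).

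Gsc, a homeobox factor of the organizer, had its highest level at day 2. It was at 0.693, 0.961 and 0.675 CPM at day 0, 0.948, 0.778 and 5.11 CPM at day 2, 0.758, 0.868 and 0.291 CPM at day 6 and 0.171, 0.152 and 0.381 CPM at day 15. Again replicate 3 of day 2 stood apart, and the other libraries of days 0, 2 and 6 overlapped. The change at day 6 against day 2 was -1.83 ± 0.68 (adjusted p = 0.0439), and it was -0.41 without day 2 replicate 3 (adjusted p = 0.618). The call was also lost without day 6 replicate 1, 2 or 3 (adjusted p = 0.0778, 0.0526 and 0.151).

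Evx1, a homeobox gene expressed in the streak and later in spinal interneurons, was the one streak factor that returned. It was at 1.24, 1.05 and 5.86 CPM at day 0, 0.0296, 0 and 2.5 CPM at day 2, 0.033, 0.0241 and 0.492 CPM at day 6 and 3.08, 2.64 and 3.14 CPM at day 15. Every day 15 library lay above every day 6 library, and the change was 3.83 ± 1.33 (adjusted p = 0.0262). With the replicate number as a block it was 5.10 (adjusted p = 0.00123). Dropping day 15 replicate 3, day 6 replicate 1 or day 6 replicate 2 ended the call (adjusted p = 0.0554, 0.0816 and 0.0857), as did testing with no filter on low counts (adjusted p = 0.104), and DESeq2 gave no adjusted p. Evx1 overlaps the antisense gene Evx1os by 1335 bases, at a mean of 0.375 CPM for Evx1os and 1.23 CPM for Evx1 over the 48 libraries, and the strand setting of the counting is not given in the sources used here.

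In all, 0 of the 10 genes rose and 7 fell at day 6 against day 2 in E14, where 19.6% of 20503 genes fell and 22.1% rose, with a median log2 change of -2.62 over the 10 and 0.04 over all genes. In this step 5 of 5 formative epiblast and 4 of 5 neuronal markers fell. By contrast, 6 of 6 endoderm, 5 of 5 mesenchyme and 4 of 6 trophoblast markers rose. Of 7 naive markers 3 fell and 1 rose, and of 5 neural progenitor markers 3 rose and 2 fell. The part of these cells in the fall of the 7 genes was not tested. At day 15 against day 6, 3 rose (Inhbb, Fst and Evx1) and 3 fell (Nodal, Lefty1 and Lefty2), where 54.6% of genes were called, 27.3% rising and 27.3% falling. The median was -1.23 over the 10 genes and -0.05 over all genes.

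**Figure D2:**
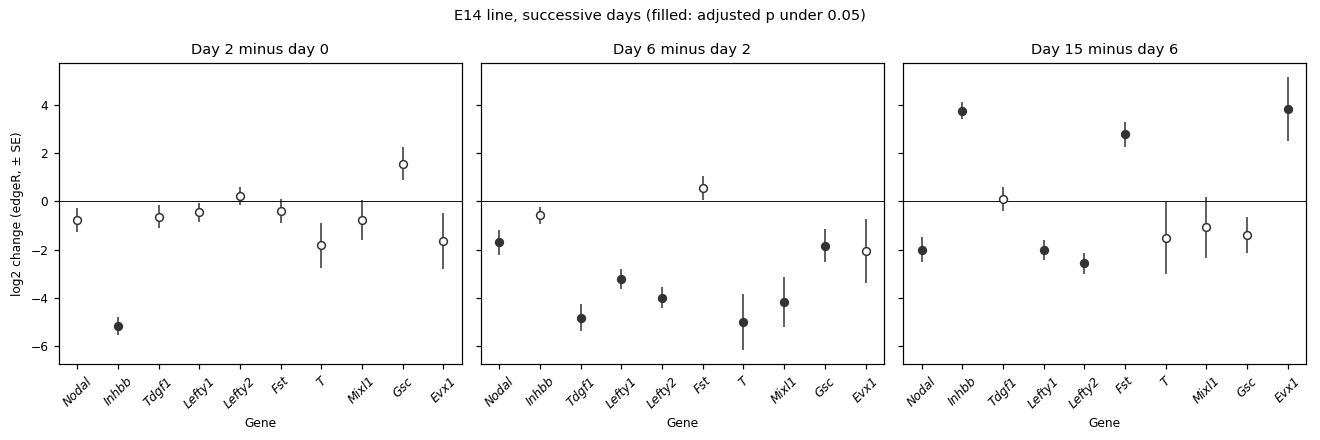
Log2 change ± SE of the 10 genes in E14 for day 2 minus day 0, day 6 minus day 2 and day 15 minus day 6, with filled points for adjusted p under 0.05. Inhbb alone was called in the first step (-5.16), 7 genes fell in the second, and Inhbb, Fst and Evx1 rose in the third.

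The wider pathway, 47 other genes in 4 lists, changed in both directions. At day 2 against day 0 in E14, 3 of 44 tested genes rose and 8 fell, where 9.5% and 12.1% of all genes did. The streak genes Sp5 (4.59 against 38.5 CPM, -3.04 ± 0.93, adjusted p = 0.0335) and Wnt3 (3.1 against 18.8 CPM, -2.57 ± 0.75, adjusted p = 0.0269) fell, as did Cdx1 and Cdx2, homeobox genes of the posterior axis, by 3.80 and 3.74 on the log2 scale. The organizer genes Lhx1 (2.68 ± 0.70, adjusted p = 0.0166) and Foxa2 (2.23 ± 0.54, adjusted p = 0.012) rose, as did Skil, which encodes a SMAD repressor (0.80). At day 6 against day 2, 12 of 44 rose and 11 fell, where 22.1% and 19.6% of all genes did. Gdf3, a Nodal-related ligand, fell by 2.59 and Eomes, a T-box factor of the streak, by 2.58. Fgf8, a growth factor of the streak, fell by 5.14, while Cdx1 rose by 6.50 ± 0.74. Smad3, a signal transducer of the pathway, rose by 2.19 ± 0.18, the endoderm factor gene Sox17 by 3.95 and Inha, the inhibin alpha gene, by 3.13, and Wnt8a fell by 2.51. At day 15 against day 6, 13 of 44 rose and 15 fell, where 27.3% and 27.3% of all genes did. Inhba, the gene of the other activin subunit, rose by 5.96 ± 0.56 (49.4 against 0.757 CPM), and Foxh1 fell by 3.30 ± 0.51. Pmepa1, a feedback target, rose by 3.01, Foxa2 by 2.22 and Snai1 by 2.07, and Cdx1 fell by 9.05, Nkx1-2 by 4.31 and Sp5 by 3.47. In the same step 4 of 5 mesenchyme and 5 of 5 neuronal markers rose and none fell, and their part in the changes of Inhbb, Fst and Evx1 was not tested.

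At days 0 and 2 the level of T differed widely between replicates, except in KAT6A knockout stem cells (52.5, 60.3 and 45.7 CPM). Some of the other genes were highest in the same library. In E14 and in the double knockout, replicate 3 held the highest T level at both days. At day 2 it had 46.2 CPM in the double knockout, against 3.23 and 1.63 CPM in the other 2 double knockout libraries, and 36.2 CPM in E14, against 1.01 and 2.08 CPM in the other 2 E14 libraries. In the KAT6A knockout at day 2 replicate 1 was highest (38.2, 1.49 and 21.4 CPM in replicates 1, 2 and 3). In the KAT6B knockout at day 2 replicate 1 was lowest, and replicate 2 was highest by a small margin (5.39, 25.4 and 25.1 CPM). The library highest for T was also highest for Mixl1 in 7 of the 8 groups of days 0 and 2, for Fst in 7, Evx1 in 6, Gsc in 5, Nodal in 5, Lefty1 and Tdgf1 in 4, Lefty2 in 3 and Inhbb in 1. Among the 15192 genes that averaged 1 CPM or more, 21% did so in at least 5 groups, 8.04% in at least 6 and 1.98% in at least 7, so the counts of Gsc and Nodal were no rarity. Of the list of 20 other streak, mesoderm and organizer genes, 7 did so in at least 7 groups, 5 in 6 groups and 8 in 4 or fewer. The 7 were Fgf8, Sp5, Cdx1, Cdx2, Nkx1-2, Mesp1 and Msgn1, the last pair with means of 0.336 and 0.379 CPM, while Chrd did so in 1 group and Tbx6 in 2.

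**Figure D3:**
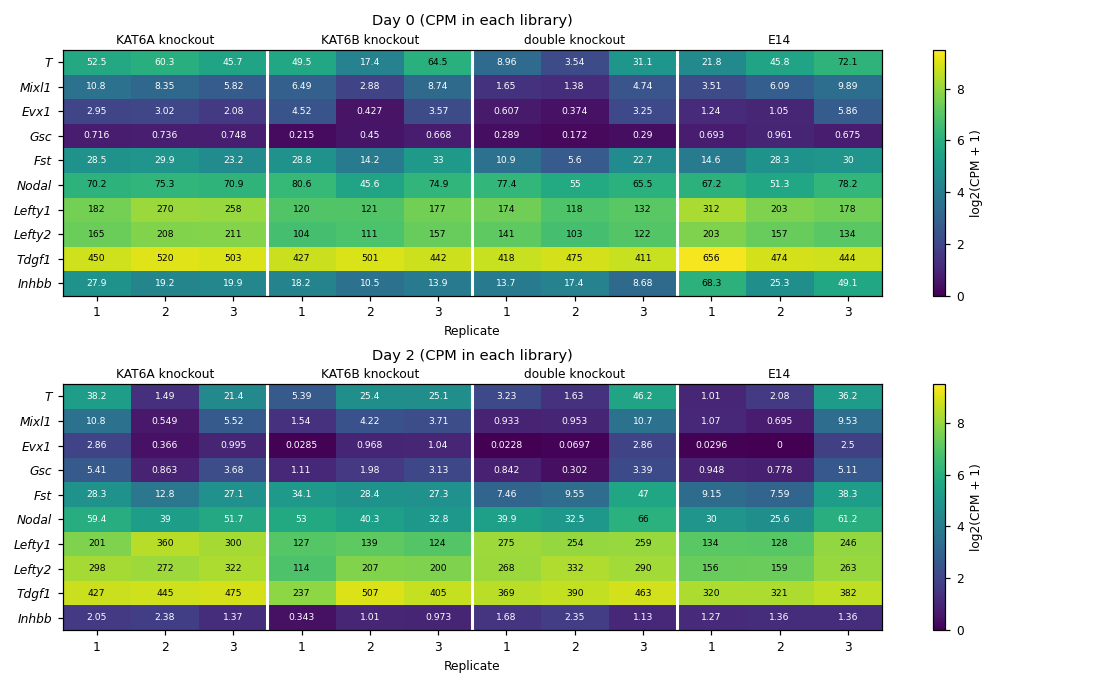
Level of the 10 genes in each library at day 0 (upper panel) and day 2 (lower panel), with genes in rows, replicates of the 4 lines in columns, the CPM printed in each cell and colour for log2(CPM + 1). At day 2 T ran from 1.01 to 46.2 CPM, and Mixl1, Evx1 and Gsc were high in the same libraries of E14 and the double knockout.

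In E14, day 2 replicate 3 decided part of what was called between days 0 and 2. Without E14 day 2 replicate 3, T (-4.91, adjusted p = 0.000695), Mixl1 (-2.89, adjusted p = 0.0234) and Fst (-1.54, adjusted p = 0.0114) were called as lower at day 2, where all 3 replicates gave -1.82, -0.78 and -0.40 with no call. Evx1 was called as well (adjusted p = 0.00818), its other 2 day 2 libraries holding 1 and 0 counts. With the replicate number as a block, T alone was added (-2.85, adjusted p = 0.0196). The same library moved the next step: without it Fst rose at day 6 against day 2 (1.69, adjusted p = 0.00273).

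In the double knockout, Inhbb was the one gene of the 10 that edgeR called against E14 at any day. In stem cells Inhbb was at 13.7, 17.4 and 8.68 CPM in the double knockout, against 68.3, 25.3 and 49.1 CPM in E14. The 2 groups did not overlap, and the log2 change was -1.87 ± 0.33 (adjusted p = 0.0152), where 2.09% of 18935 genes were called and 0.792% fell. With the replicate number as a block 605 genes were called in place of 395. The call was lost with no filter on low counts (adjusted p = 0.0653), with all 48 libraries in 1 fit (adjusted p = 0.0913), without E14 replicate 1 (-1.50, adjusted p = 0.0543) or double knockout replicate 3 (-1.63, adjusted p = 0.0549), and in the other 4 fits that left out 1 library adjusted p was 0.0023 to 0.0448. The number of genes called in the whole table shifted more: it was 150, 1940 and 187 when E14 replicate 1, 2 or 3 was dropped, and 140, 80 and 119 when double knockout replicate 1, 2 or 3 was.

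All 10 genes had values below 0 in this comparison, with a median log2 change of -0.94, against -0.00159 over all genes. Of these, 8 had an unadjusted p under 0.05, where 18.2% of all genes did. By edgeR 1 was called, and by DESeq2 3 (Inhbb, Lefty1 and Gsc), among 1125 genes that DESeq2 called in the whole table. These 3 were also those whose groups did not overlap, as for 7.68% of genes in this direction. Lefty1 was at 174, 118 and 132 CPM in the double knockout, against 312, 203 and 178 CPM in E14, a change of -0.74 ± 0.22 (adjusted p = 0.0944). Gsc was at 0.289, 0.172 and 0.29 CPM in the double knockout, against 0.693, 0.961 and 0.675 CPM in E14 (-1.65 ± 0.47, adjusted p = 0.086), and these are 6 to 33 counts per library. For both genes every double knockout library was the lower.

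T was at 8.96, 3.54 and 31.1 CPM in double knockout stem cells, against 21.8, 45.8 and 72.1 CPM in E14. Double knockout replicate 3 lay within the E14 range, the other 2 below it, and the change was -1.70 ± 0.68 (adjusted p = 0.213), or -2.92 without that library (adjusted p = 0.0385). Mixl1 was at 1.65, 1.38 and 4.74 CPM in the double knockout and at 3.51, 6.09 and 9.89 CPM in E14 (-1.34 ± 0.48, adjusted p = 0.159). Fst gave -0.92 ± 0.40, Lefty2 -0.46 ± 0.18 and Tdgf1 -0.30 ± 0.14, at adjusted p of 0.239, 0.18 and 0.263. Nodal itself stood at 66 ± 11.2 CPM in the double knockout and 65.6 ± 13.5 CPM in E14 (SD, n = 3 each), a change of -0.02 ± 0.19.

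Of the 47 other pathway genes, 0 rose and 2 of 44 tested fell in double knockout stem cells, where 1.29% and 0.792% of all genes did. Fgf8 was at 2.49, 0.805 and 3.15 CPM in the double knockout and at 5.34, 8.91 and 10.3 CPM in E14 (-1.95 ± 0.44, adjusted p = 0.037). Tgif1, which encodes a repressor that binds SMADs, was at 118 ± 5.37 CPM in the double knockout and 153 ± 4.8 CPM in E14 (-0.40 ± 0.08, adjusted p = 0.0296). Markers of other cells moved in the same libraries. The summed level of 5 mesenchyme genes was 508 to 793 CPM in the double knockout and 173 to 282 CPM in E14, with 3 of 5 called higher, and that of 6 trophoblast genes was 87.7 to 117 CPM and 27.5 to 59.1 CPM, with 3 of 6 called higher (Elf5 was under 1 CPM in both lines). The summed level of 7 naive genes was 1085 to 1542 CPM in the double knockout and 1650 to 1798 CPM in E14, with 4 of 7 called lower. That of 5 neural progenitor genes was 361 to 419 CPM and 491 to 698 CPM, with 2 of 5 called lower. The part of these cells in the lower Inhbb level was not tested.

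**Figure D4:**
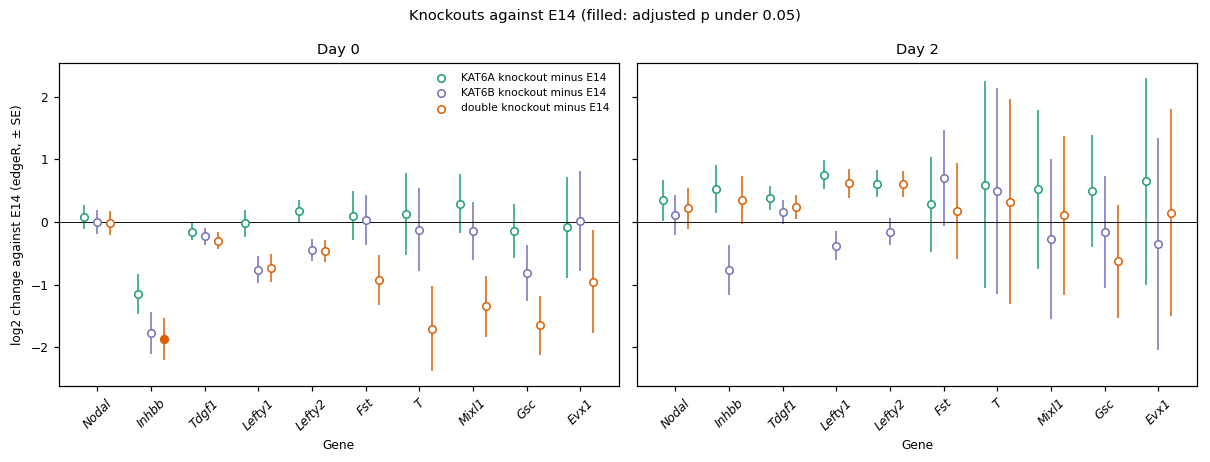
Log2 change ± SE of the 10 genes in each knockout minus E14 at day 0 and day 2, with filled points for adjusted p under 0.05. The sole filled point is Inhbb in the double knockout at day 0 (-1.87), and the SE of T, Mixl1, Gsc and Evx1 at day 2 is wide.

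At day 2 the order of the Lefty genes in the double knockout and E14 was the other way round. Lefty1 was at 275, 254 and 259 CPM in the double knockout, against 134, 128 and 246 CPM in E14 (0.62 ± 0.23, adjusted p = 0.259). Lefty2 was at 268, 332 and 290 CPM in the double knockout, against 156, 159 and 263 CPM in E14 (0.61 ± 0.21, adjusted p = 0.206). Every double knockout library lay above every E14 library for both, as for 12.4% of 19594 genes, and the margin over E14 replicate 3 was small. Without that library Lefty1 was called (0.98, adjusted p = 0.0484). edgeR called 0 of the 10 genes at day 2, where 1.12% of genes were called, and DESeq2 called 0. An unadjusted p under 0.05 was found for 2 of the 10 and for 12.7% of all genes. Markers of other cells differed in the same libraries. The summed trophoblast level was 27.8 to 38.9 CPM in the double knockout and 10 to 13.9 CPM in E14, with 3 of 6 called higher, and that of 5 mesenchyme genes was 33 to 58.2 CPM and 20.3 to 21.6 CPM, with 1 of 5 called higher. The summed level of 5 formative epiblast genes was 1468 to 1640 CPM in the double knockout and 2111 to 2516 CPM in E14, with 1 of 5 called lower. Their part in the Lefty levels was not tested.

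The change of the double knockout's effect between days 0 and 2 was tested directly. All 10 genes gave positive values (median 1.08, against 0.01 over all genes). A positive value means that a gene's level relative to E14 was higher at day 2 than at day 0. The 10 values are not independent, since some of these genes were highest in the same libraries. The value was 2.20 ± 0.52 for Inhbb, 1.34 ± 0.35 for Lefty1, 1.06 ± 0.30 for Lefty2 and 0.52 ± 0.24 for Tdgf1, with unadjusted p of 0.000283, 0.00105, 0.00148 and 0.0404. None passed the adjustment over all genes in edgeR (adjusted p = 0.398, 0.51, 0.534 and 0.792), a test in which 0.00496% of 20179 genes were called. DESeq2 called 1 of the 10, Inhbb (adjusted p = 0.0147), among 21 genes in the whole table. For the single knockouts edgeR and DESeq2 called 0 of the 10, with 3 for the KAT6A knockout and 0 for the KAT6B knockout at an unadjusted p under 0.05. Over all genes the share at such a p was 6.26% for the double knockout, 6.94% for the KAT6A knockout and 4.45% for the KAT6B knockout. Of the single knockouts, the KAT6A knockout had 10 of 10 values above 0 and the KAT6B knockout 8 of 10. Their medians were 0.49 and 0.37, against 0.011 and 0.0054 over all genes. The 2 days of E14 enter all 3 of these tests.

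Within each knockout line, Inhbb fell between days 0 and 2 as it did in E14, to low levels in all lines. In the KAT6A knockout it was at 2.05, 2.38 and 1.37 CPM at day 2, against 27.9, 19.2 and 19.9 CPM at day 0, a change of -3.53 ± 0.25 (adjusted p = 3.49e-06). In the KAT6B knockout it was at 0.343, 1.01 and 0.973 CPM at day 2, against 18.2, 10.5 and 13.9 CPM at day 0 (-4.12 ± 0.50, adjusted p = 0.00309). Double knockout cells had 1.68, 2.35 and 1.13 CPM at day 2, against 13.7, 17.4 and 8.68 CPM at day 0 (-2.95 ± 0.70, adjusted p = 0.0179). No library overlapped between the days in any line. The double knockout call was lost without day 2 replicate 1, 2 or 3 (adjusted p = 0.0742, 0.0524 and 0.0588). In these steps 19.7% of genes were called in the KAT6A knockout, 4.02% in the KAT6B knockout and 11.2% in the double knockout.

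Gsc rose over the same interval in the KAT6A and double knockouts. It was at 5.41, 0.863 and 3.68 CPM at day 2 in the KAT6A knockout, against 0.716, 0.736 and 0.748 CPM at day 0, and rose by 2.17 ± 0.61 (adjusted p = 0.0251). Double knockout libraries had 0.842, 0.302 and 3.39 CPM at day 2, against 0.289, 0.172 and 0.29 CPM at day 0 (2.58 ± 0.75, adjusted p = 0.043). In the KAT6B knockout it was at 1.11, 1.98 and 3.13 CPM at day 2, against 0.215, 0.45 and 0.668 CPM at day 0 (2.25 ± 0.66, adjusted p = 0.0761). Every day 2 library lay above every day 0 library of its line in the 3 knockouts, by little for the lowest library. Each of the 2 calls held in 1 of the 6 fits with a library dropped, adjusted p reaching 0.101 in the KAT6A knockout and 0.266 in the double knockout, and with the replicate number as a block the double knockout gave 2.23 (adjusted p = 0.0514). The calls were lost without KAT6A knockout day 0 replicate 1, 2 or 3 or day 2 replicate 1 or 3, and without double knockout day 0 replicate 1, 2 or 3 or day 2 replicate 1 or 3. Without double knockout day 2 replicate 3, Evx1 was called as lower at day 2 in that line (adjusted p = 0.0325), its other 2 libraries holding 0.0228 and 0.0697 CPM.

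Other pathway genes moved in these steps too. Inhba fell in the KAT6A knockout (-2.76 ± 0.63), the KAT6B knockout (-1.44 ± 0.30) and the double knockout (-3.76 ± 0.50), at adjusted p of 0.00901, 0.0232 and 0.000814. Lhx1 rose by 2.76 ± 0.50 in the KAT6A knockout and by 2.55 ± 0.67 in the double knockout, and Foxa2 by 1.96 and 1.72 in the same lines. Cdx2 and Cdx1 fell by 2.97 and 2.50 in the KAT6A knockout and by 3.73 and 3.40 in the KAT6B knockout, and Sp5 fell by 2.34 and Skil rose by 0.56 in the KAT6A knockout. In the double knockout Tbx6 rose by 1.48, and Pmepa1 fell by 1.37 and Snai1 by 1.07. Pcsk6, which encodes a protease that cleaves Nodal precursors, fell by 1.03 in the KAT6A knockout, by 1.13 in the KAT6B knockout and by 0.97 in the double knockout on the log2 scale. Cer1, which encodes the secreted Nodal antagonist Cerberus, was at 3.13, 0.497 and 3.26 CPM at day 2 in the KAT6A knockout, against 0.0859, 0.0254 and 0 CPM at day 0. In the KAT6B knockout Cer1 was at 0.257, 2.4 and 4.03 CPM at day 2 and had no count at day 0. Over all 47 genes, 4 of 45 tested rose and 12 fell in the KAT6A knockout, where 6.91% and 12.8% of all genes did. In the KAT6B knockout 1 of 46 rose and 6 fell, where 1.79% and 2.24% of all genes did. In the double knockout 3 of 42 rose and 6 fell, where 4.03% and 7.14% of all genes did.

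The single knockouts gave no call by edgeR against E14 at any day. For the KAT6A knockout 1, 2, 1 and 0 genes had an unadjusted p under 0.05 at days 0, 2, 6 and 15, and DESeq2 called 0 at each day. Over all genes 4.75%, 10.3%, 5.3% and 11.4% had such a p, and 0%, 0.0102%, 0% and 0% were called, so the counts of the 10 lay near the background. For the KAT6B knockout the numbers were 3, 0, 3 and 0. DESeq2 called 1 at day 0 (Inhbb) and 1 at day 6 (Lefty1), among 233 and 548 genes in the whole table. Over all genes 11.8%, 4.06%, 13% and 20% had an unadjusted p under 0.05, and edgeR called 0.0106%, 0%, 0.0292% and 0.0742%. Inhbb in KAT6B knockout stem cells was at 18.2, 10.5 and 13.9 CPM, against 68.3, 25.3 and 49.1 CPM in E14 (-1.77 ± 0.33, adjusted p = 0.073), and the 2 groups did not overlap. In the KAT6A knockout it was at 27.9, 19.2 and 19.9 CPM, overlapping the E14 range through E14 replicate 2 (-1.15 ± 0.32, adjusted p = 0.93). All 3 knockouts are set against the same E14 libraries. Without E14 replicate 2 the KAT6B knockout change was -2.08 (adjusted p = 0.00688).

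Lefty1 in KAT6B knockout stem cells was at 120, 121 and 177 CPM, against 312, 203 and 178 CPM in E14 (-0.76 ± 0.22, adjusted p = 0.264), and the highest knockout library all but met the lowest E14 library. Inhbb, Lefty1 and Gsc were the 3 genes whose KAT6B knockout libraries all lay below E14 at day 0, as for 5.39% of genes. In the KAT6A knockout at day 2 all 10 genes had values above 0 (median log2 change 0.53, against 0.01 over all genes), and Inhbb, Lefty2 and Tdgf1 had no overlap with E14, as for 10.5% of genes. Lefty2 was at 298, 272 and 322 CPM in the KAT6A knockout, against 156, 159 and 263 CPM in E14 (0.61 ± 0.21, adjusted p = 0.423).

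Set against the KAT6A knockout in stem cells, the double knockout had 10 of 10 values below 0 and 7 genes with no overlap, as for 11.8% of genes in this direction. These were Inhbb, Lefty1, Lefty2, Fst, T, Mixl1 and Gsc. T was at 8.96, 3.54 and 31.1 CPM in the double knockout, against 52.5, 60.3 and 45.7 CPM in the KAT6A knockout (-1.83 ± 0.68, adjusted p = 0.547). Mixl1 was at 1.65, 1.38 and 4.74 CPM in the double knockout, against 10.8, 8.35 and 5.82 CPM in the KAT6A knockout (-1.64 ± 0.48, adjusted p = 0.352). Fst was at 10.9, 5.6 and 22.7 CPM in the double knockout, against 28.5, 29.9 and 23.2 CPM in the KAT6A knockout (-1.03 ± 0.40, adjusted p = 0.551). All 3 double knockout libraries lay below the KAT6A knockout for each of these, by a narrow margin for Mixl1 and Fst. By edgeR 0 of the 10 were called, where 0.0528% of genes were, and 7 had an unadjusted p under 0.05, where 7.56% of genes did. DESeq2 called 0.

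Against the KAT6B knockout in stem cells, 0 of the 10 genes were called, where 0.0634% of genes were, or 27 genes in place of 12 with the replicate number as a block. An unadjusted p under 0.05 was found for 3 of the 10 (Mixl1, Fst and T) and for 6.02% of all genes. Values were below 0 for 9 of the 10 (median -0.46, against 0.0016 over all genes). DESeq2 called 0. At day 2 the double knockout had higher values of Inhbb, Lefty1 and Lefty2 than the KAT6B knockout in every library, as for 7.65% of genes. Lefty1 was at 275, 254 and 259 CPM in the double knockout, against 127, 139 and 124 CPM in the KAT6B knockout (1.00 ± 0.23, adjusted p = 0.179). DESeq2 called this gene (adjusted p = 0.00826), among 217 genes in the whole table. By edgeR 0 of the 10 were called, where it called 0.0102% of genes, and 3 had an unadjusted p under 0.05, where 9.13% of genes did. Against the KAT6A knockout at day 2 edgeR and DESeq2 called 0 of the 10, where 0.0153% of genes were called by edgeR, or 5 genes in place of 3 with the block. All 10 values were again below 0 (median -0.16, against 0.0021 over all genes), yet 0 had an unadjusted p under 0.05, where 7.75% of genes did.

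At day 6, after retinoic acid had been given, Lefty1 was low in all lines, with the lowest mean in the KAT6B knockout. It was at 5.21, 6.57 and 2.99 CPM in the KAT6B knockout, against 10.5, 23 and 19.7 CPM in E14 (-1.84 ± 0.35, adjusted p = 0.0748), and all 3 knockout libraries lay below E14. In the KAT6A knockout it was at 11.8, 5.9 and 8.48 CPM and in the double knockout at 7.8, 10.8 and 12.9 CPM, both overlapping E14. Fst was at 14.9, 7.71 and 14.7 CPM in the KAT6B knockout, against 33.8, 26 and 19 CPM in E14 (-1.07 ± 0.45, adjusted p = 0.352). Lefty1 and Fst were the 2 genes with no overlap in this direction, as for 8.97% of genes. edgeR and DESeq2 called 0 of the 10 in the double knockout at day 6, where 0.0682% of genes were called (39 genes in place of 14 with the replicate number as a block), and 1 had an unadjusted p under 0.05, where 8.12% of genes did.

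At day 15, 7 of the 10 genes passed the filter on low counts; T, Mixl1 and Gsc did not, with at most 0.269, 0.185 and 0.381 CPM in any library. No member was called in any knockout by edgeR or DESeq2, where 3.18% of genes were called in the double knockout, and 0 had an unadjusted p under 0.05, where 24.6% of genes did in the double knockout. The 643 genes behind that 3.18% became 0, 17 and 0 without E14 replicate 1, 2 or 3 and 0, 0 and 102 without double knockout replicate 1, 2 or 3. Evx1 was at 0.518, 0.29 and 1.06 CPM in the KAT6A knockout, at 2.13, 0 and 0.509 CPM in the KAT6B knockout and at 0.701, 1.06 and 0.141 CPM in the double knockout, against 3.08, 2.64 and 3.14 CPM in E14. All 9 knockout libraries lay below the 3 E14 libraries, with changes of -2.23 ± 1.14, -1.74 ± 1.12 and -2.21 ± 1.14 (adjusted p = 0.481, 0.394 and 0.254). In this direction the groups did not overlap for 13.1%, 15% and 20.4% of genes. The summed level of 5 neuronal genes was 214 to 827 CPM in the KAT6A knockout, 48.4 to 623 CPM in the KAT6B knockout and 92.3 to 527 CPM in the double knockout, against 871 to 1546 CPM in E14. Of these neuronal genes 0 of 5 were called in each knockout. Of 5 neural progenitor genes 0, 1 and 2 were called lower in the KAT6A, KAT6B and double knockouts. The part of neuronal cells in the Evx1 level was not tested.

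Fst was at 402, 209 and 264 CPM in the KAT6A knockout, 138, 443 and 407 CPM in the KAT6B knockout and 297, 240 and 402 CPM in the double knockout at day 15, against 133, 247 and 154 CPM in E14. Each knockout overlapped E14, and the changes were 0.71 ± 0.41, 0.86 ± 0.41 and 0.80 ± 0.41 (adjusted p = 0.524, 0.273 and 0.256). Without KAT6B knockout replicate 1, the library with 138 CPM, the KAT6B knockout change was 1.22 (adjusted p = 0.0469). The summed level of 6 endoderm genes was 234 CPM in that library and 1068 and 1275 CPM in the other 2 KAT6B knockout libraries, against 427 to 699 CPM in E14. The summed level of 5 mesenchyme genes was 12063 CPM in that library and 2897 and 2715 CPM in the other 2, against 1214 to 3130 CPM in E14. The part of these cells in the Fst level was not tested. Among the other pathway genes 3 of 40 tested rose in the double knockout, where 1.86% of all genes did. Fstl3, which encodes a follistatin-like activin binder, was at 14.7 CPM, against 5.58 CPM in E14 (1.39 ± 0.31, adjusted p = 0.0445). The others were Furin, which encodes a protease that cleaves Nodal precursors (0.74 ± 0.16), and Smad3 (0.65 ± 0.15). In 4 of the 6 fits with a library dropped no gene was called, these 3 included. Inhbb at day 15 varied most in the double knockout, at 13.6, 33 and 2.59 CPM, against 11.8, 11.4 and 12 CPM in E14.

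Over the 16 group means, on a log2 scale, the genes most like Nodal were Stip1 (Pearson r = 0.995), Utf1, Orc2, Rfx2 and Nop58, out of 14049 genes searched. Those most like T were Lsm1 (r = 0.988), Polr2j, Immt, Psmd13 and Ddx21. The 16 means share the time course, so these values mainly describe a gene high at days 0 and 2 and low later.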

How the data were processed

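RNA of 48 libraries was sequenced from rRNA-depleted RNA with a directional kit and 150 bp paired ends, per the labels' protocols. The deposited values are raw counts per gene, which the authors made after alignment with HISAT2 to GRCm39, per the submitters' processing notes. Which program counted reads, on which strand and with which annotation is not given in the sources used here. Of 36983 rows, 48 with a repeated gene ID were left out. Groups came from GEO's labels, and no 2 libraries held identical counts. The replicates come from 3 independent differentiation experiments, per the labels.

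The 25 comparisons were tested with edgeR 4.0.16 in R 4.3.3 (quasi-likelihood F test, TMM scaling, genes kept by a minimum count of 10 in the smallest group and 15 in all), in 9 fits: 1 per day over all lines, 1 per line over all days, and 1 over days 0 and 2 for the change of a knockout's effect. Benjamini-Hochberg adjustment covered all genes of a comparison. The SE is the log2 change divided by the square root of F. Levels are TMM-scaled CPM computed from the deposited counts, and a list's median is given beside that of all genes tested. Each day fit shares 1 estimate of spread over the 4 lines. The scripts were tested on simulated data. Precision is set by 3 libraries per group and by depth, and low genes such as Gsc rest on few reads.

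The alternatives were relative log expression scaling, no filter, a filter of at least 1 CPM in 3 libraries, the replicate number as a block, DESeq2 1.42.0, all 48 libraries in 1 fit, and leaving out each library. The block was taken to pair libraries where the deviations from the group mean of each same-numbered pair correlated above 0.1. This held for the double knockout against E14 at days 0 and 6, the double knockout against the KAT6B knockout at day 0 and against the KAT6A knockout at day 2, the KAT6B knockout against E14 at day 2, the E14 steps to days 2 and 15 and the double knockout step to day 2. The 10 genes, the pathway lists and the marker lists were chosen with earlier results of these data known. Other pathway genes were named by rule, as up to 4 per direction with the largest change among those past the threshold and at a mean of at least 1 CPM in the higher group; Pcsk6 in the KAT6A knockout and the genes named for their order between replicates were picked after their values were seen. The genes most like Lefty1 over the group means are not reported here.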

Additional observations from a re-analysis of the deposited data

How the results depend on the processing

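Every call among the 10 genes kept its direction under the alternatives run. Values that passed no test could change sign with a library dropped, among them T at day 2 against day 0 in the double knockout (0.22, and -2.58 without day 2 replicate 3). Relative log expression scaling kept the side of the threshold for all 241 gene and comparison pairs, while DESeq2 added 7 calls and gave no adjusted p for 8 pairs (Evx1 at day 15 in E14, called by edgeR, among them), the replicate block added 3 and lost 2, no filter lost 4, and the fit of all 48 libraries added 1 and lost 1. Among the 10 genes against E14, the double knockout gave 1 call, and 0 with no filter on low counts (Inhbb, adjusted p = 0.0653), 0 with all 48 libraries in 1 fit (adjusted p = 0.0913) and 3 by DESeq2. The KAT6B knockout gave 0 calls, and 2 by DESeq2 and 2 with the replicate number as a block, where the numbers do not pair the libraries (Inhbb at day 0, -1.74, adjusted p = 0.0438, and Lefty1 at day 6, -1.84, adjusted p = 0.0461). Under the block, Gsc at day 6 against day 2 in E14 gave -1.45 (adjusted p = 0.119). In that step the same-numbered pairs correlated at 0.127, 0.0974 and 0.262, the second just short of the limit of 0.1. Where the libraries are paired, the block changed no call other than those of T in E14 and Gsc in the double knockout given above. DESeq2 called 1 gene between the double and single knockouts and 1 in the change of the knockout effect, against 0 and 0. The cause of these shifts was not tested. With 1 library left out, calls numbered 0 to 0 for the KAT6A knockout, 0 to 1 for the KAT6B knockout, 0 to 2 for the double knockout, 0 to 0 against the single knockouts, 11 to 16 for the E14 steps, 3 to 5 for day 2 against day 0 in the knockouts and 0 to 0 for the change of effect. Over all genes, calls ran from 1985 to 5481 at day 2 against day 0 in E14 and from 114 to 1336 in the KAT6B knockout with 1 library left out. DESeq2 called more genes in the whole table than edgeR in each knockout against E14 at days 0, 2, 6 and 15: 7, 35, 3 and 335 for the KAT6A knockout (edgeR 0, 2, 0 and 0), 233, 23, 548 and 1839 for the KAT6B knockout (edgeR 2, 0, 6 and 15) and 1125, 658, 256 and 2724 for the double knockout (edgeR 395, 220, 14 and 643). Under the unpaired block the double knockout had 0 calls at day 15. Other losses of a call with no filter were Nodal at day 6 in E14 (adjusted p = 0.0829), Evx1 at day 15 in E14 (adjusted p = 0.104) and Inhbb at day 2 in the double knockout (adjusted p = 0.0701). Under relative log expression scaling the mean level of Inhbb was 12.1 CPM in E14 at day 15 (11.7 with TMM), and that of Gsc was 0.708 CPM in the KAT6A knockout at day 0 (0.733 with TMM). Depth limits Gsc, Mixl1 and T after day 2, and Evx1 at day 6 and in the knockouts at day 15, as these levels rest on few reads. In E14 at day 15 Evx1 held 126, 157 and 181 counts.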
